A study of Mus musculus with 21 samples.

Results

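The comparison set C3H/10T1/2 cells that carried histone H2B with a glutamate of the acidic patch replaced by glutamine (E113Q) against the same cells with wild-type H2B (WT). C3H/10T1/2 is a line of multipotent cells, derived from mouse embryos, from which cartilage, fat, bone and muscle cells can be obtained in culture. Genes were included where their mean over the 3 E113Q and the 3 WT libraries was at least 1 TPM, which kept 11989 of the 24091 genes of the deposited table (49.8%). TPM (a transcript's share of all transcripts) is corrected for transcript length and scaled to a fixed sum in each library. Of the genes kept, 11173 had a mean of at least 1 TPM in both groups, 417 were below it in WT and 399 were below it in E113Q. At the threshold, Gm5643 lay just inside with a mean of 1 TPM and Gm7008 just outside with 0.9997 TPM.

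The series held 7 groups of 3 libraries: WT, E113Q, E113K at the same residue, and E71K, E71Q, E76K and E76Q. All were grown in the same medium with serum, and RNA was taken with a column kit. The submitters' design text calls the 3 libraries of a group independent biological replicates, without saying what was independent. The labels name no separate lines of a genotype, so a line and its substitution cannot be told apart. They do not give the H2B gene of the construct, its promoter or its level against endogenous H2B. TPM keeps no read total, so depth is unknown. In bulk RNA, fewer cells of a type and less RNA per cell cannot be told apart.

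The acidic patch is a negatively charged surface of the nucleosome formed by residues of H2A and H2B. Many chromatin proteins hold the nucleosome there, often through an arginine, among them ubiquitin ligases, remodellers and the tail of histone H4. The glutamate that E113Q replaces belongs to this surface. Glutamine removes the charge of the side chain and keeps nearly its size, whereas lysine in E113K reverses the charge.

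The mouse H2B genes show which codon the substitution concerns. The stretches of coding sequence below are from the GENCODE M21 annotation of GRCm38, read 5′ to 3′ on the coding strand, with codon 114 in capitals. It encodes the residue named in E113Q, whose number leaves out the first methionine. These 4 genes are shown because they include the most abundant H2B genes of the cells and the gene with the other glutamate codon.
Hist2h2be, chr3:96221490-96221522, strand +: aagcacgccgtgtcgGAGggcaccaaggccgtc
Hist1h2bc, chr13:23684556-23684588, strand +: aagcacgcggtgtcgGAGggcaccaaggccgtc
Hist1h2br, chr13:21834095-21834127, strand +: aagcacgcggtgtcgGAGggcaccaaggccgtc
Hist2h2bb, chr3:96270076-96270108, strand +: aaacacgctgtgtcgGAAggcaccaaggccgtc
Of 18 H2B genes with a coding sequence, 17 had a glutamate codon at this place, and Hist1h2ba, whose reading frame is 127 codons against 126, was offset. Among the 13 tested H2B genes the codon was GAG in 12 and GAA in 1, Hist2h2bb.

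Of the 13 tested H2B genes 2 rose in E113Q (15.4%, against 18.5% of all tested genes) and 0 fell. Throughout, values by library are in TPM in the order of replicates 1, 2 and 3. Hist2h2be, known for polyadenylated H2B transcripts in differentiated cells, was at 107, 99.1 and 154 TPM in E113Q and at 22.7, 21.8 and 23.2 TPM in WT. All 3 E113Q libraries were above all 3 WT libraries (log2 fold change 2.33 ± 0.19, adjusted p = 3.92e-08, limma with Benjamini-Hochberg adjustment over all tested genes, as in every adjusted p below). All fold changes here are on the log2(TPM + 1) scale, which understates the change of low genes, and are given ± SE of the model. Hist1h2bc was at 68.3, 63.6 and 104 TPM against 41.5, 42.4 and 41.2 TPM and rose (log2 fold change 0.87 ± 0.27, adjusted p = 0.0186), but missed the threshold without replicate 3 (adjusted p = 0.0995). The other 11 tested H2B genes did not pass, and their log2 fold changes ran from -0.72 for Hist1h2bh to 1.17 for Hist1h2bg. Hist1h2br, the third in abundance, stood at 48.9, 23.6 and 59.8 TPM against 33.5, 28.6 and 32.1 TPM, with overlapping groups. Reads of near-identical H2B copies, and of a transgene, cannot be told from each other in these values.

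One E113Q library stood apart from its mates. Across the tested genes, which are not independent replicates, log2(TPM + 1) correlated at 0.962 between replicates 1 and 2 of E113Q but at 0.944 and 0.945 of each with replicate 3, while the WT libraries correlated at 0.970 to 0.976. Among 9808 genes whose E113Q mean reached 5 TPM, replicate 3 was at least 2-fold above both mates in 127 and at least 2-fold below both in 410. The same counts were 49 and 42 for replicate 1 and 41 and 40 for replicate 2. Values without replicate 3 are given beside the results for named calls that it ended and for list counts that it moved widely. A single microRNA locus, Mir6236, took 3.32%, 4.50% and 9.30% of all TPM in E113Q and 4.39%, 7.26% and 3.77% in WT.

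Of the protein-coding genes highest in replicate 3, Ucma, a cartilage matrix protein, had the widest gap, at 1.18, 0.812 and 112 TPM in the 3 E113Q libraries. Angptl1, Cmtm5, Padi2, Cnmd and Wfdc18 came next, and Cnmd, the cartilage protein chondromodulin, was at 0.447, 1.16 and 22.9 TPM. Genes of innate immunity were among those lowest there, with Zbp1, a sensor of Z-form nucleic acid, at 28.1, 25.7 and 1.78 TPM and the interferon-induced GTPase Tgtp2 at 16.8, 18.7 and 1.09 TPM. Anxa8, Slurp1, Phf11b and Prl2c2 were also lowest in that library of the 3. Over all gene types the widest gaps were mostly of short RNA loci, whose TPM is unstable: Mir7662, Snord43, Mir7069, Mir344b and Mir7673 were at 0 in replicates 1 and 2, and Snord47, Mir1191b, Snord69, Scarna17, Mir7115 and Mir186 were at 0 in replicate 3.

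Against WT, 3881 of the 11989 tested genes changed in E113Q (32.4%), of which 2213 rose (18.5%) and 1668 fell (13.9%). The change was at least 2-fold for 1304 genes (10.9%), 735 of them up and 569 down. In 6893 genes (57.5%) the 3 E113Q and the 3 WT values did not overlap. Among called genes this held for 2154 of the 2213 rises and 1652 of the 1668 falls. A lack of overlap, where given below for a called gene, therefore adds little to the call. Without replicate 3, 2105 genes rose (17.6%) and 1225 fell (10.2%), and 1796 rises and 1195 falls were called both with and without it. Over all tested genes the median fold change (log2) was 0.06, or 0.12 without replicate 3. Rises made up 57.0% of the calls, 52.2% after median-ratio rescaling (2966 rises and 2719 falls), and 51.2%, 51.1% and 63.2% without E113Q replicates 1, 2 and 3. The shares of 18.5% and 13.9% over all tested genes are the background for every list count below.

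**Figure D1:**
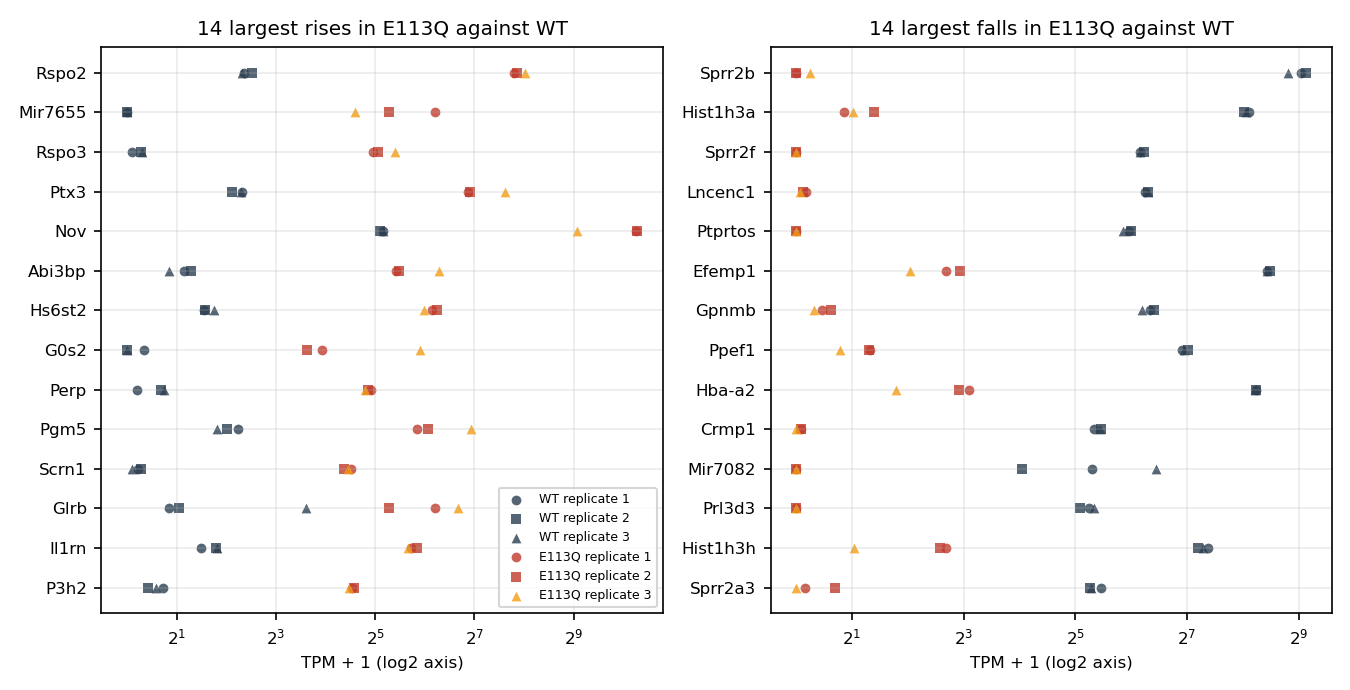
TPM + 1 on a log2 axis in each of the 3 E113Q libraries (red, replicate 3 in orange) and the 3 WT libraries (dark) for the 14 genes with the largest rises (left) and the 14 with the largest falls (right). The genes were selected to have no overlap between the groups, so the E113Q points lie wholly on one side of the WT points by that choice. Sprr2b goes from 445 to 563 TPM in WT to at most 0.191 TPM in E113Q.

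The largest rises were led by the R-spondins, secreted proteins that amplify Wnt signals at the cell surface. Rspo2 (chromosome 15, 43020788 to 43171594 in GRCm38, the build of all positions here) was at 222, 232 and 257 TPM in E113Q and at 4.12, 4.72 and 3.97 TPM in WT (log2 fold change 5.50 ± 0.46, adjusted p = 3.99e-08). Rspo3 (chromosome 10, 29453106 to 29535867) was at 29.98, 32.3 and 41.1 TPM against 0.0768, 0.219 and 0.230 TPM (log2 fold change 4.90 ± 0.14, adjusted p = 3.35e-14). All E113Q libraries exceeded all WT libraries by a wide margin in both genes, replicate 3 included.

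Ptx3, a pentraxin that crosslinks hyaluronan matrix, was at 116, 119 and 195 TPM against 3.99, 3.34 and 3.91 TPM (log2 fold change 4.89 ± 0.29, adjusted p = 4.67e-10). Nov (CCN3), a matricellular protein of the CCN family, reached 1230.5, 1244 and 533 TPM against 34.6, 33.3 and 34.8 TPM (log2 fold change 4.73 ± 0.28, adjusted p = 5.22e-10), with replicate 3 the lowest of the E113Q libraries. Abi3bp, an extracellular matrix protein, rose by 4.63 and Hs6st2, a heparan sulfate 6-O-sulfotransferase, by 4.50 on the log2 scale. P3h2, a collagen prolyl 3-hydroxylase, rose by 3.96.

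G0s2, an inhibitor of the lipase ATGL, was at 14.2, 11.4 and 59.1 TPM against 0.277, 0 and 0 TPM (log2 fold change 4.37 ± 0.51, adjusted p = 3.22e-06), highest in replicate 3. Perp, a p53 target found at desmosomes, was at 29.4, 28.1 and 26.8 TPM against 0.150, 0.611 and 0.674 TPM (log2 fold change 4.32 ± 0.14, adjusted p = 1.02e-13), with no wide gap among the 3 libraries. Il1rn, the antagonist of the interleukin 1 receptor, was at 51.7, 56.1 and 49.5 TPM against 1.82, 2.49 and 2.51 TPM (log2 fold change 4.03 ± 0.19, adjusted p = 3.17e-11). Pgm5 rose by 4.26, Scrn1 by 4.24 and Glrb, the beta subunit of the glycine receptor, by 4.22. Glrb averaged 43.0 to 77.4 TPM in every other substitution group too. Scrn1 averaged 38.8 TPM in E113K but at most 0.706 TPM in E71K, E71Q, E76K and E76Q. Mir7655 rose by 5.36 from a value of 0 in each WT library, but it is a short microRNA locus at 72.6, 37.6 and 23.3 TPM in E113Q, and TPM of so short a locus is unstable.

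The largest falls were of genes abundant in WT that came to or near 0. Sprr2b (chromosome 3, 92316705 to 92318085), which encodes a proline-rich component of the envelope of skin cells, was at 0, 0 and 0.191 TPM in E113Q and at 527, 563 and 445 TPM in WT (log2 fold change -8.91 ± 0.23, adjusted p = 5.96e-15). Sprr2f was at 0 in all 3 E113Q libraries and at 70.5, 73.7 and 70.1 TPM in WT, and Sprr2a3 fell by 5.04. These paralogs are near-identical, and how reads were shared among them is uncertain. Histone H3 transcripts fell too, Hist1h3a from 274, 258 and 267 TPM to 0.813, 1.62 and 1.03 TPM (log2 fold change -6.97 ± 0.51, adjusted p = 8.37e-09) and Hist1h3h fell by 5.19, both copies of genes that cannot be fully told from other H3 genes.

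Single genes of other kinds lost nearly all of their transcript. Efemp1 (fibulin-3, chromosome 11, 28853154 to 28926743), an extracellular matrix glycoprotein, was at 5.39, 6.67 and 3.13 TPM against 344, 356 and 343 TPM (log2 fold change -5.89 ± 0.29, adjusted p = 4.12e-11). Gpnmb, a transmembrane glycoprotein of lysosomes and melanosomes, was at 0.377, 0.547 and 0.242 TPM against 79.5, 83.9 and 72.04 TPM (log2 fold change -5.84 ± 0.15, adjusted p = 5.96e-15), and of 20 tested lysosomal genes 3 fell (15%, near the 13.9% of all genes) and 1 rose, with 1 fall left without replicate 3. Crmp1, a cytosolic mediator of semaphorin signals, was at 0.0588, 0.0609 and 0 TPM against 39.4, 43.01 and 42.4 TPM (log2 fold change -5.36 ± 0.12, adjusted p = 9.05e-16). In all 3 genes every E113Q library was below 7 TPM, and every WT library was far above it. The long noncoding RNA Lncenc1 fell by 6.16, the phosphatase gene Ppef1 fell by 5.81 and the antisense RNA Ptprtos fell by 5.94. Hba-a2, an alpha globin with a near-identical copy, fell by 5.63, and Prl3d3, of the placental prolactin family with many like copies, fell by 5.22. Mir7082 fell by 5.26, and as a short locus it carries the same reservation as Mir7655. Several of these falls were shared by every other substitution group and are not particular to E113Q. There Sprr2b averaged at most 2.94 TPM, Hist1h3a at most 1.36, Lncenc1 at most 0.581, Crmp1 at most 1.27 and Prl3d3 0 TPM. Others were not near 0 in all groups, and in E76K Efemp1 averaged 180 TPM and Gpnmb 21.6 TPM.

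Interferon-stimulated genes were higher in E113Q, mostly in replicates 1 and 2. Type I interferon acts through factors that include Stat2 and Irf9 and bind a repeated GAAA element in the promoters of antiviral genes. Of 24 tested genes of this list 15 rose (62.5%, against 18.5% of all tested genes) and 0 fell, with a median log2 fold change of 0.79 against 0.06 for all genes. The median difference from the WT mean was 1.26, 1.27 and 0.08 in the 3 E113Q libraries. Without replicate 3, 22 of the 24 rose and 0 fell, with a median of 1.25. Summed over the list the level was 3482, 3409.6 and 1909 TPM in E113Q and 1568, 1487 and 1466 TPM in WT.

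**Figure D2:**
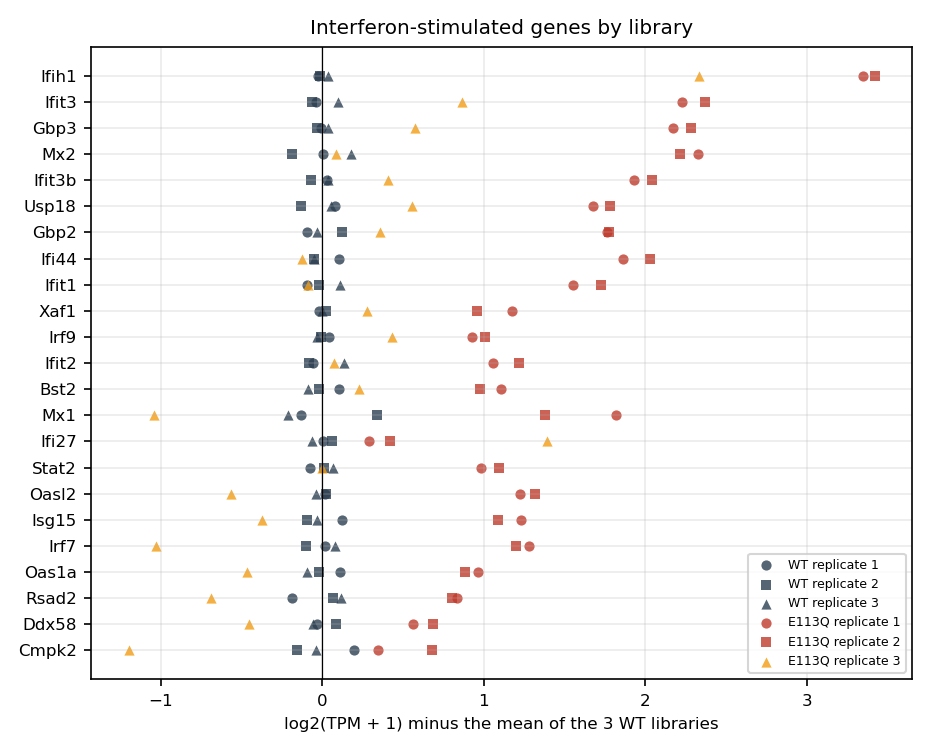
Difference of log2(TPM + 1) from the mean of the 3 WT libraries for 23 of the 24 interferon-stimulated genes (rows), with E113Q libraries in red (replicate 3 in orange) and WT libraries dark. E113Q replicates 1 and 2 lie to the right of the WT points in all rows. Replicate 3 lies among or to the left of them for many genes and to the right for others, among them Ifih1, Ifit3 and Gbp3.

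The sensor Ifih1 (MDA5), which recognizes long double-stranded RNA, had the largest change. It was at 9.67, 10.2 and 4.28 TPM in E113Q and at 0.0310, 0.0394 and 0.0724 TPM in WT (log2 fold change 3.03 ± 0.21, adjusted p = 3.03e-09), and no E113Q library overlapped WT. Ifit3, an RNA-binding antiviral protein, was at 226, 249 and 86.9 TPM against 46.1, 45.3 and 50.8 TPM (log2 fold change 1.82 ± 0.34, adjusted p = 5.00e-04). Gbp3, a guanylate-binding GTPase, was at 45.5, 49.1 and 14.4 TPM against 9.28, 9.10 and 9.58 TPM (log2 fold change 1.68 ± 0.37, adjusted p = 0.00198). In both, replicate 3 stood between its mates and WT. Mx2, annotated as a transcribed pseudogene, was at 29.4, 27.2 and 5.44 TPM against 5.10, 4.34 and 5.88 TPM (log2 fold change 1.54 ± 0.44, adjusted p = 0.012), and there replicate 3 fell within the WT range. Of the transcription factors of the pathway Stat2 rose by 0.69 and Irf9 by 0.79. Other rises were Ifit3b (1.46), Usp18 (1.34), Gbp2 (1.30), Ifi44 (1.26), Ifit1 (1.06), Xaf1 (0.80), Ifit2 (0.78) and Bst2 (0.77).

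Promoters of the genes of this list, called or not, were searched for the GAAA element. The 10-base motif GAAANNGAAA was searched on both strands in the 250 bases before each start in the RefSeq promoter table (GRCm38.p6), with overlapping matches kept. It was present in 10 of the 19 interferon-stimulated genes with a promoter there (52.6%), in 306 of 9393 tested genes with a promoter (3.26%) and in 978 of all 32851 promoters (2.98%). The list was chosen for its response to interferon, which acts through this element, so its high share does not bear on the change in E113Q. A match describes these letters, and the binding of a factor was not measured. The 150 bases before the start are shown 5′ to 3′ on the gene's strand, with matches on either strand in capitals, for 3 genes that rose and carry the motif and for Ifih1, which rose most and has no match in the 250 bases.
Ifit1, chr19:34640739-34640888, strand +: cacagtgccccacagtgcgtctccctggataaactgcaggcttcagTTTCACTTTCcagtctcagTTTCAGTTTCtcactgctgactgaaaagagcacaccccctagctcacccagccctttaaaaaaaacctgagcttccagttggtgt
Gbp3, chr3:142559894-142560043, strand +: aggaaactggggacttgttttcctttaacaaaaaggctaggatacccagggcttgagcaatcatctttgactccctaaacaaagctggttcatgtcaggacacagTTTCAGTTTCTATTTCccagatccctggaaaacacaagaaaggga
Bst2, chr8:71537473-71537622, strand -: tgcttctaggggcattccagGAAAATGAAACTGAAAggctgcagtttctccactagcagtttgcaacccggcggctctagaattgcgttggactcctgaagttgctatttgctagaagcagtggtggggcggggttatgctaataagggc
Ifih1, chr2:62646256-62646405, strand -: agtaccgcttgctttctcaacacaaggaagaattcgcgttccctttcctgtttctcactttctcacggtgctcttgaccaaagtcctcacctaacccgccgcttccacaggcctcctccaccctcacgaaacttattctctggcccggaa
Gbp3 has a second start in the table, with no match.

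Wnt pathway genes rose beyond the R-spondins. Wnt ligands bind Frizzled receptors with Lrp5 or Lrp6, and R-spondins keep these receptors at the surface by removing the ligases Znrf3 and Rnf43. Of 22 tested members 13 rose and 2 fell, 9 of the 15 receptors and inhibitors among the rises and 0 among the falls, with a list median of 0.73. Fzd8 was at 24.2, 20.95 and 61.5 TPM against 2.61, 2.74 and 2.59 TPM (log2 fold change 3.16 ± 0.47, adjusted p = 5.32e-05), highest in replicate 3. Fzd9 was at 7.41, 6.26 and 11 TPM against 0, 0.0361 and 0 TPM (log2 fold change 3.15 ± 0.16, adjusted p = 8.59e-11). Both were above WT in every E113Q library. Fzd4 rose by 1.67, Fzd1 by 1.21, the receptor kinases Ror1 by 1.25 and Ror2 by 0.57, and the ligase Znrf3, which opposes R-spondins, by 1.23. The secreted inhibitor Sfrp1 rose by 1.58 and the factor Tcf7l2 by 1.21. The 2 falls were of ligands, Wnt7b (-2.02) and Wnt9a (-0.74).

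Small leucine-rich proteoglycans, which bind collagen fibrils and growth factors, were mostly higher. Of 10 tested members 6 rose and 2 fell, and the library medians were 0.81, 0.83 and 1.03 in the order of replicates. Aspn (asporin) was at 236, 285 and 255 TPM against 16.4, 17.7 and 14.5 TPM (log2 fold change 3.92 ± 0.45, adjusted p = 2.83e-06). Ogn (osteoglycin), its neighbour on chromosome 13, was at 373, 409.9 and 462 TPM against 46.9, 49.6 and 45.3 TPM (log2 fold change 3.10 ± 0.60, adjusted p = 6.72e-04). Neither gene overlapped between the groups. Ecm2 rose by 1.77, Omd by 1.004, Prelp by 0.96 and Bgn (biglycan) by 0.79, while Podnl1 fell by 1.51 and Tsku fell by 0.59. Bgn and Tsku did not pass without replicate 3 (adjusted p = 0.0818 and 0.18). Aspn, Ogn, Ecm2 and Omd lie together on chromosome 13.

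Collagens changed both ways. Of 6 fibrillar collagen genes 4 rose (66.7%, against 18.5% of all tested genes) and 0 fell. Of 11 tested network and other collagens 2 rose (18.2%, near the share of all genes) and 4 fell (36.4%, against 13.9%). The difference between these counts was not tested. Col1a1, the main chain of type I collagen, was at 2021, 1866 and 1686 TPM against 1231, 1330.1 and 1262 TPM (log2 fold change 0.54 ± 0.12, adjusted p = 0.00303). Col5a2 was at 155, 160.3 and 195 TPM against 65.8, 71.4 and 65.9 TPM (log2 fold change 1.31 ± 0.25, adjusted p = 7.04e-04). Col1a2 rose by 0.95 and Col3a1 by 1.26, the latter not without replicate 3. Each of these genes was higher in all 3 E113Q libraries. Of the falls, Col8a1, a short-chain collagen, went from 24.6, 26.99 and 27.8 TPM to 2.75, 3.28 and 1.03 TPM (log2 fold change -3.10 ± 0.32, adjusted p = 7.59e-07), Col7a1, of anchoring fibrils, fell by 2.47 and Col18a1, the precursor of endostatin, fell by 2.13.

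Elastic fibre and fibulin genes were called lower in 5 of 15 and higher in 1, with Efemp1 as the largest fall. The microfibril gene Mfap5 fell by 1.57, the crosslinking enzyme Loxl4 fell by 1.27, the latent TGF-beta binding protein Ltbp1 fell by 1.24 and fibrillin Fbn1 fell by 0.61. Fbln5, which organizes elastin, was at 144, 133 and 185 TPM against 23.8, 26.1 and 21.1 TPM (log2 fold change 2.64 ± 0.43, adjusted p = 1.36e-04), the opposite direction from Efemp1 within the fibulin family.

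Matricellular genes changed both ways, 5 up and 5 down of 17, and the list as a whole had a median of -0.03. Without replicate 3, 2 rose and 6 fell. Smoc2, a calcium-binding secreted protein, was at 17.98, 23.5 and 6.92 TPM against 389.7, 399 and 375 TPM (log2 fold change -4.66 ± 0.37, adjusted p = 1.87e-08), with all E113Q libraries far below WT. Thbs1 (thrombospondin 1), an activator of latent TGF-beta, was at 18.1, 18.1 and 17.3 TPM against 4.31, 4.47 and 4.92 TPM (log2 fold change 1.76 ± 0.18, adjusted p = 8.27e-07). Tnxb, a tenascin, fell by 2.05.

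Matrix proteases and their inhibitors rose in 13 of 23 tested members and fell in 3, or in 10 and 0 without replicate 3. Mmp16, a membrane-type metalloprotease, was at 106, 115 and 55.5 TPM against 19.9, 22.2 and 19.3 TPM (log2 fold change 2.05 ± 0.25, adjusted p = 4.78e-06). Mmp14, the membrane protease that activates Mmp2, was at 278, 287 and 561 TPM against 114, 129 and 114 TPM (log2 fold change 1.57 ± 0.39, adjusted p = 0.00492). Adamts2, which trims procollagen, rose by 1.72, Adamts12 by 1.57, Adamts1 by 1.47 and Adamts5, an aggrecan-cleaving enzyme, by 1.21. The inhibitor Serpine2 rose by 1.38 and Timp2 by 0.92. Among the falls, all lost without replicate 3, were Mmp28 (-0.88) and Adamts6 (-0.55).

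Growth factor pathways held mixed changes. In the BMP list 7 of 20 rose and 1 fell: the modulators Bmper (1.52), Fst (1.15) and Chrd (0.85), the ligand Bmp4 (0.71) and the target Id3 (1.13) were higher, and the antagonist Nbl1 was lower (-0.89). Id3 was at 238, 233 and 168 TPM against 93.2, 92.6 and 99.9 TPM. In the TGF-beta list 5 of 18 rose and 4 fell, or 7 and 3 without replicate 3, with Tgfb2 at 11.1, 11.5 and 21.8 TPM against 1.90, 1.85 and 1.35 TPM (log2 fold change 2.49 ± 0.48, adjusted p = 6.78e-04). Inhba, the activin A subunit, rose by 1.63, the signal transducer Smad3 fell by 1.08 and the ligand Tgfb1 fell by 0.76.

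Members of the insulin-like growth factor pathway had some of the widest changes of any list, with 3 of 11 up and 2 down. Igf1, the ligand, was at 7.55, 8.80 and 71.8 TPM against 0.324, 0.264 and 0.199 TPM (log2 fold change 3.86 ± 0.56, adjusted p = 4.26e-05), and replicate 3 was far above its mates. The binding protein Igfbp4 was at 15.7, 11.8 and 13.1 TPM against 196, 191 and 199 TPM (log2 fold change -3.76 ± 0.43, adjusted p = 2.41e-06) and Igfbp6 fell by 3.99. The imprinted adaptor Grb10, which dampens receptor signals, was at 71.9, 72.4 and 72.7 TPM against 5.33, 6.24 and 6.10 TPM (log2 fold change 3.41 ± 0.17, adjusted p = 4.55e-11). Grb10 averaged 57.9 to 107 TPM and Igfbp4 3.59 to 17.3 TPM in the other substitution groups. As in most called genes, no library of 1 group entered the range of the other in these 4 genes.

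Of 12 tested FGF pathway genes 2 rose (16.7%, near the 18.5% of all genes) and 3 fell, with Fgf10, a mesenchymal ligand, up by 2.54 and the feedback inhibitor Spry1 and the target Etv4 down, at -2.48 and -2.24. In the Hedgehog list 2 of 8 rose, the co-receptors Boc (2.07) and Gas1 (1.73), and Ptch1, receptor and target, fell by 0.67. In the Notch list the receptor Notch3 went from 32.6, 36.99 and 30.9 TPM to 8.45, 8.38 and 3.15 TPM (log2 fold change -2.26 ± 0.21, adjusted p = 1.92e-07) and the ligand Jag1 rose by 1.06.

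Cartilage genes were raised most in replicate 3. Sox9, the master factor of cartilage, was at 103, 104 and 147 TPM against 50.7, 60.1 and 54.8 TPM (log2 fold change 1.07 ± 0.21, adjusted p = 7.16e-04). Of 14 tested cartilage genes 5 rose and 1 fell, and the library medians were 0.57, 0.54 and 2.07, so that replicate 3 was well above its mates. Col11a1, a minor fibrillar collagen of cartilage, was at 70.5, 68.6 and 211 TPM against 8.54, 7.26 and 8.85 TPM (log2 fold change 3.47 ± 0.57, adjusted p = 1.49e-04). Matn4 (matrilin) was at 4.59, 5.69 and 23.2 TPM against 0.826, 1.07 and 0.585 TPM (log2 fold change 2.41 ± 0.59, adjusted p = 0.00444). Both were highest in replicate 3 and above WT in the other 2 libraries. Col2a1, the main collagen of cartilage, rose by 1.47 and Fmod by 1.63, the latter not without replicate 3 (adjusted p = 0.13). Col9a1 went the other way, from 32.4, 34.3 and 32.2 TPM to 0.752, 0.876 and 3.91 TPM (log2 fold change -3.75 ± 0.52, adjusted p = 2.44e-05).

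Of 8 tested regulators of fat cells 5 rose and 1 fell, and of 7 lipid-handling genes 1 rose and 0 fell. The difference between these counts was not tested. Pparg, the master factor of fat cells, was at 38.6, 42.3 and 28.3 TPM against 18.9, 21.4 and 20.99 TPM (log2 fold change 0.79 ± 0.12, adjusted p = 5.58e-05). Cebpa was at 5.04, 5.34 and 5.94 TPM against 0.310, 0.535 and 0.207 TPM (log2 fold change 2.26 ± 0.17, adjusted p = 1.15e-08), above WT in all 3 libraries. Zfp423 rose by 1.59 and Cebpd by 1.38, while Cebpb fell by 0.62. Fabp4, a fatty acid carrier of fat cells, was at 6.83, 6.01 and 1.32 TPM against 0.631, 0.515 and 0 TPM, lowest in replicate 3 (log2 fold change 1.90 ± 0.44, adjusted p = 0.00296).

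Bone genes changed both ways, 3 up and 3 down of 11, or 4 and 2 without replicate 3. Runx2, the master factor of osteoblasts, stood at 16.3, 18.1 and 15.6 TPM against 11.3, 16.7 and 12.8 TPM, with overlapping groups (log2 fold change 0.29 ± 0.32, adjusted p = 0.51). Dlx5, a factor of bone formation, was at 21.8, 22 and 17.03 TPM against 1.45, 2.61 and 2.87 TPM (log2 fold change 2.70 ± 0.23, adjusted p = 6.21e-08). The bone matrix protein Spp1 was at 583, 616 and 442 TPM against 1460.5, 1349 and 1554 TPM (log2 fold change -1.42 ± 0.29, adjusted p = 0.00115), and Bglap3 of the osteocalcin cluster, whose copies are alike, fell by 1.87. Enpp1, which makes pyrophosphate, rose by 2.15.

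Smooth muscle genes rose in 2 (15.4%, near the 18.5% of all genes) and fell in 3 of 13. Actg2, a smooth muscle actin, was at 1.86, 1.17 and 1.37 TPM against 64.1, 74.9 and 66.2 TPM (log2 fold change -4.82 ± 0.14, adjusted p = 3.15e-14). Acta2, the other smooth muscle actin, was at 179, 169.6 and 175 TPM against 104, 97.8 and 96.3 TPM (log2 fold change 0.81 ± 0.15, adjusted p = 5.51e-04). The 2 actins thus moved in opposite directions, each with no overlap between the groups. Myl9, a myosin light chain, fell by 4.67, Tagln rose by 0.76, and Srf, the factor that drives many of these genes, fell by 0.77. Of 5 tested skeletal muscle genes Acta1 (-3.84), Des (-1.81) and Tnnt3 (-1.01, adjusted p = 0.12 without replicate 3) fell and Mef2c rose (2.04). Myod1, the master factor of skeletal muscle, was below the expression threshold.

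Markers of the labelled cell type were present in both groups. Vim was at 5330.5, 5239.5 and 4487 TPM against 5301, 5356 and 5249.7 TPM, Ly6a (Sca-1) at 2609, 2614 and 763 TPM against 1443, 1374 and 1377 TPM and Pdgfrb at 95.9, 95.6 and 122 TPM against 74.9, 79.1 and 72.5 TPM. Of 14 stromal markers 10 were tested, 0 rose and 4 fell (Mcam, Eng, Cd44 and S100a4, of which Mcam and Eng fell also without replicate 3, when 1 marker rose), and Nt5e, Fap and Dpp4 stayed under 0.3 TPM in every library. Markers of other cell types were low. Of 12 epithelial markers, summed at 6.36, 5.21 and 3.18 TPM in E113Q and 13.9, 15.6 and 12.7 TPM in WT, only Krt8 and Cdh1 were tested and both fell (-2.17 and -0.87), while Cldn4 was at 0 in all 6 libraries.

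The leukocyte list, of 10 genes with 3 tested, summed to 14.7, 12.4 and 15.4 TPM in E113Q and 31.8, 32.7 and 33.2 TPM in WT, with Lyz2 (-1.78) and Cd14 (-0.71) lower and Ptprc, which marks all leukocytes, at most 0.027 TPM. Endothelial markers summed to at most 4.10 TPM, with Cldn5 at 0. Of 11 neuronal markers Map2, a microtubule protein, was at 25.6, 25.9 and 17.5 TPM against 2.56, 2.76 and 2.86 TPM (log2 fold change 2.67 ± 0.18, adjusted p = 2.86e-09), Tubb3 fell by 0.95 but not without replicate 3 (adjusted p = 0.0996), and the rest stayed under 1 TPM. The glial list summed to 16.7, 17.5 and 49.6 TPM in E113Q and 55.4, 59.9 and 59.2 TPM in WT. Of its 3 tested genes 0 rose, 1 fell (S100b) and 2 were not called. Their median difference from the WT mean was -0.02, 0.20 and 2.29 in the 3 E113Q libraries, so it was raised mostly in replicate 3. Sox10, Foxd3 and Olig2 were at 0 in all 6 libraries, and S100b, a calcium-binding protein that cartilage cells also make, was at 14.8, 14.5 and 31.3 TPM against 53.9, 58.05 and 57.3 TPM (log2 fold change -1.53 ± 0.44, adjusted p = 0.0127).

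Of 20 tested transcription factors of mesenchymal patterning 6 rose (30%, against 18.5% of all genes) and 3 fell (15%, near the 13.9% of all genes). Twist2 was at 22.6, 17.6 and 10.1 TPM against 58.3, 53.8 and 59.1 TPM (log2 fold change -1.77 ± 0.24, adjusted p = 1.56e-05), whereas its paralog Twist1 rose by 0.64. Pax9 rose by 1.74, Foxf1 by 1.32 and Osr1 by 1.13. Of 10 tested Hox genes 3 rose, Hoxa3 by 0.95, Hoxa4 by 0.91 and Hoxa2 by 0.61, and 2 fell, Hoxb9 from 4.94, 5.03 and 5.08 TPM to 0.199, 0.207 and 0.128 TPM (log2 fold change -2.35 ± 0.11, adjusted p = 3.92e-11) and Hoxb6 fell by 1.70. Of the other 5, all of the A cluster, none passed. Of the imprinted genes Peg3 was at 0 in all 3 E113Q libraries and at 5.08, 5.95 and 6.05 TPM in WT (log2 fold change -2.74 ± 0.11, adjusted p = 3.92e-12), and Sgce (1.83) and Impact (1.17) rose with Grb10.

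Of 10 tested chemokines 6 fell and 1 rose, with a median of -1.15. Ccl2, which draws monocytes, was at 52.6, 58.2 and 27.9 TPM against 498, 421 and 532 TPM (log2 fold change -3.42 ± 0.53, adjusted p = 7.90e-05). Ccl7 was at 26.8, 25.96 and 11.4 TPM against 241, 213 and 255 TPM (log2 fold change -3.49 ± 0.50, adjusted p = 3.34e-05). In both genes all E113Q libraries lay below all WT libraries, with replicate 3 lowest. Ccl8 fell by 1.60, Ccl5 fell by 1.34 and Ccl9 fell by 1.27. Among cytokines and receptors 3 of 14 rose and 3 fell, and Tlr2, a receptor for bacterial lipoproteins, was at 15.3, 15.8 and 12.8 TPM against 2.12, 2.12 and 2.51 TPM (log2 fold change 2.27 ± 0.14, adjusted p = 1.17e-09).

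Immediate early genes, which respond within minutes to growth and stress signals, rose in 5 of 18 and fell in 0. Fos was at 4.93, 3.31 and 58.03 TPM against 0.447, 0.765 and 0.536 TPM, a rise that rested on replicate 3 (log2 fold change 2.86 ± 1.07, adjusted p = 0.0483, and adjusted p = 0.25 without it). Junb was at 75.7, 63.4 and 120.0 TPM against 30.6, 27.8 and 28.5 TPM (log2 fold change 1.49 ± 0.40, adjusted p = 0.00766), and Klf2 rose by 1.35. Of 14 YAP and TEAD genes the target Ankrd1 went from 31.2, 28.7 and 32.03 TPM to 1.32, 2.01 and 0.964 TPM (log2 fold change -3.72 ± 0.37, adjusted p = 3.83e-07), and 3 rose, among them Amotl2 (0.59).

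Of 19 p53 targets 5 rose and 1 fell. Beside Perp these were Fas (1.76), Sesn1 (1.19), Trp53inp1 (0.74) and Phlda3 (0.67), while Trp53 itself fell by 0.62. Cdkn1a (p21), the inhibitor of cell cycle kinases, stood at 256, 250.4 and 241 TPM against 273, 272 and 269.7 TPM and did not pass (log2 fold change -0.12 ± 0.10, adjusted p = 0.37).

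Adhesion receptors changed both ways, 7 up and 6 down of 19. Cdh11, a cadherin of mesenchymal cells, was at 155, 165 and 132 TPM against 12.3, 12.3 and 12.5 TPM (log2 fold change 3.50 ± 0.36, adjusted p = 5.76e-07). Ncam1 was at 172, 223 and 74.7 TPM against 23.4, 29.6 and 12.4 TPM (log2 fold change 2.73 ± 0.38, adjusted p = 2.17e-05). L1cam, of the same immunoglobulin family, fell by 2.07 and the integrin subunit Itgb7 fell by 2.93. Of 19 guidance genes 9 rose and 4 fell, with Efna5 (2.55), Unc5c (2.43), Sema3a (2.21), Sema3c (2.08) and Ntn1 (2.01) among the rises. The ephrin receptor Epha5 went from 13.9, 15.1 and 12.9 TPM to 0.222, 0.339 and 0.290 TPM (log2 fold change -3.54 ± 0.12, adjusted p = 1.43e-13).

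Retinoic acid genes changed in 4 of 8. Uptake and synthesis genes fell: the retinol transporter Stra6 was at 0, 0.0551 and 0.0342 TPM against 30.1, 34.6 and 30.6 TPM (log2 fold change -4.99 ± 0.11, adjusted p = 7.25e-16), the dehydrogenase Aldh1a1 fell by 2.92 and Rdh10 fell by 2.28. The breakdown enzyme Cyp26b1 was at 26.3, 26.2 and 74.8 TPM against 5.44, 5.27 and 5.63 TPM (log2 fold change 2.57 ± 0.31, adjusted p = 4.52e-06), above WT in every library and highest in replicate 3. The other 4 of the 8 tested genes did not pass, and without replicate 3 the list had 2 rises and 4 falls.

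Cell cycle genes were far lower in replicate 3 than in its mates. Of 38 tested G2/M genes 0 rose and 2 fell, Top2a and Bub1, or 1 and 0 without replicate 3. The library medians were 0.17, 0.16 and -1.61 in replicates 1, 2 and 3, and the summed level was 3319, 3159 and 976 TPM against 2905, 2742 and 2988 TPM in WT. Mki67, a marker of dividing cells, stood at 48.9, 45.7 and 13 TPM against 37.7, 41.1 and 43.3 TPM (log2 fold change -0.38 ± 0.36, adjusted p = 0.44), and its difference was 0.21 without replicate 3. G1/S genes were lower in all 3 libraries, with medians of -0.31, -0.30 and -1.23, and 15 of 35 fell and 0 rose. Without replicate 3 the falls were 5 of 35: Uhrf1, Gins1, Pcna, Slbp and Ccne1. Uhrf1, which maintains DNA methylation, was at 52.8, 53.4 and 20.4 TPM against 87.7, 84.5 and 89.05 TPM (log2 fold change -1.15 ± 0.30, adjusted p = 0.0066). Of 10 tested cell cycle regulators 0 rose and 2 fell, Cdk6 (-0.87) and Ccnd3 (-0.40), the latter not without replicate 3 (adjusted p = 0.21). The part of cell division in other differences of replicate 3 was not tested.

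Glycolysis and hypoxia genes were lower in all 3 libraries. Of 23 tested 10 fell and 1 rose, also 10 falls without replicate 3, and the medians were -0.42, -0.38 and -0.27. Slc2a1, the glucose transporter GLUT1, was at 18.6, 18.8 and 18.8 TPM against 39.9, 40.7 and 40 TPM (log2 fold change -1.06 ± 0.14, adjusted p = 1.36e-05). Ero1l, an oxidase of disulfide formation, fell by 1.28, Vegfa fell by 1.15 and the enzymes Gpi1, Hk2, Pkm, Gapdh and Tpi1 by 0.47 to 0.72.

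Of 23 tested cholesterol synthesis genes 3 fell (13.0%, near the 13.9% of all genes) and 0 rose, or 5 and 0 without replicate 3, and the library medians were -0.52, -0.50 and 0.16. Idi1, an isomerase of the isoprenoid steps, was at 51.4, 56.8 and 82.2 TPM against 115, 111 and 125 TPM (log2 fold change -0.90 ± 0.22, adjusted p = 0.00514), and Lss, which closes the sterol rings, fell by 0.91. Of 62 cytosolic ribosomal protein genes 7 fell (11.3%, below the 13.9% of all genes) and 0 rose, or 4 and 0 without replicate 3. Those 4, Rps2 (-0.80), Rps10 (-0.62), Rpl36 (-0.56) and Rps18 (-0.53), are on chromosome 17. Of 23 amino acid response genes only Vldlr, a lipoprotein receptor, rose (2.06).

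Of 41 tested genes of proteins that bind the acidic patch or are thought to, 5 rose (12.2%) and 6 fell (14.6%), against 18.5% and 13.9% of all genes, with a median of -0.02. Without replicate 3, 4 rose and 4 fell. Smarca2 (BRM), a remodelling ATPase, was at 93.9, 99.8 and 72.3 TPM against 22.95, 22.7 and 25.2 TPM (log2 fold change 1.85 ± 0.20, adjusted p = 1.08e-06). Hmgn3, a nucleosome-binding HMG protein, was at 114, 98.95 and 84.9 TPM against 35.8, 34.1 and 39.3 TPM (log2 fold change 1.42 ± 0.16, adjusted p = 2.08e-06). Rcc1, which binds the patch as part of the Ran cycle, was at 15.8, 18.2 and 12.2 TPM against 32.3, 28.1 and 32.2 TPM (log2 fold change -0.97 ± 0.17, adjusted p = 2.53e-04), and Il33 fell by 1.36 at a low level. Of 16 histone chaperones 7 fell and 0 rose, among them Chaf1a (-1.12), Chaf1b (-0.91), Nap1l1 (-0.80) and Npm1 (-0.68), and 4 fell without replicate 3. None of the 6 tested enzymes of H2B ubiquitin passed.

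Histone genes other than H2B rose in 1 of 40 replication-dependent genes (Hist1h2ae, 1.02) and fell in 2, the H3 genes above. Of 11 histone variants 1 rose and 2 fell, or 3 and 2 without replicate 3. H2afy2 (macroH2A2) was at 20.7, 23.9 and 19.6 TPM against 8.70, 8.08 and 9.02 TPM (log2 fold change 1.22 ± 0.19, adjusted p = 9.19e-05), and H2afx fell by 1.02 and H1f0 fell by 0.71.

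**Figure D3:**
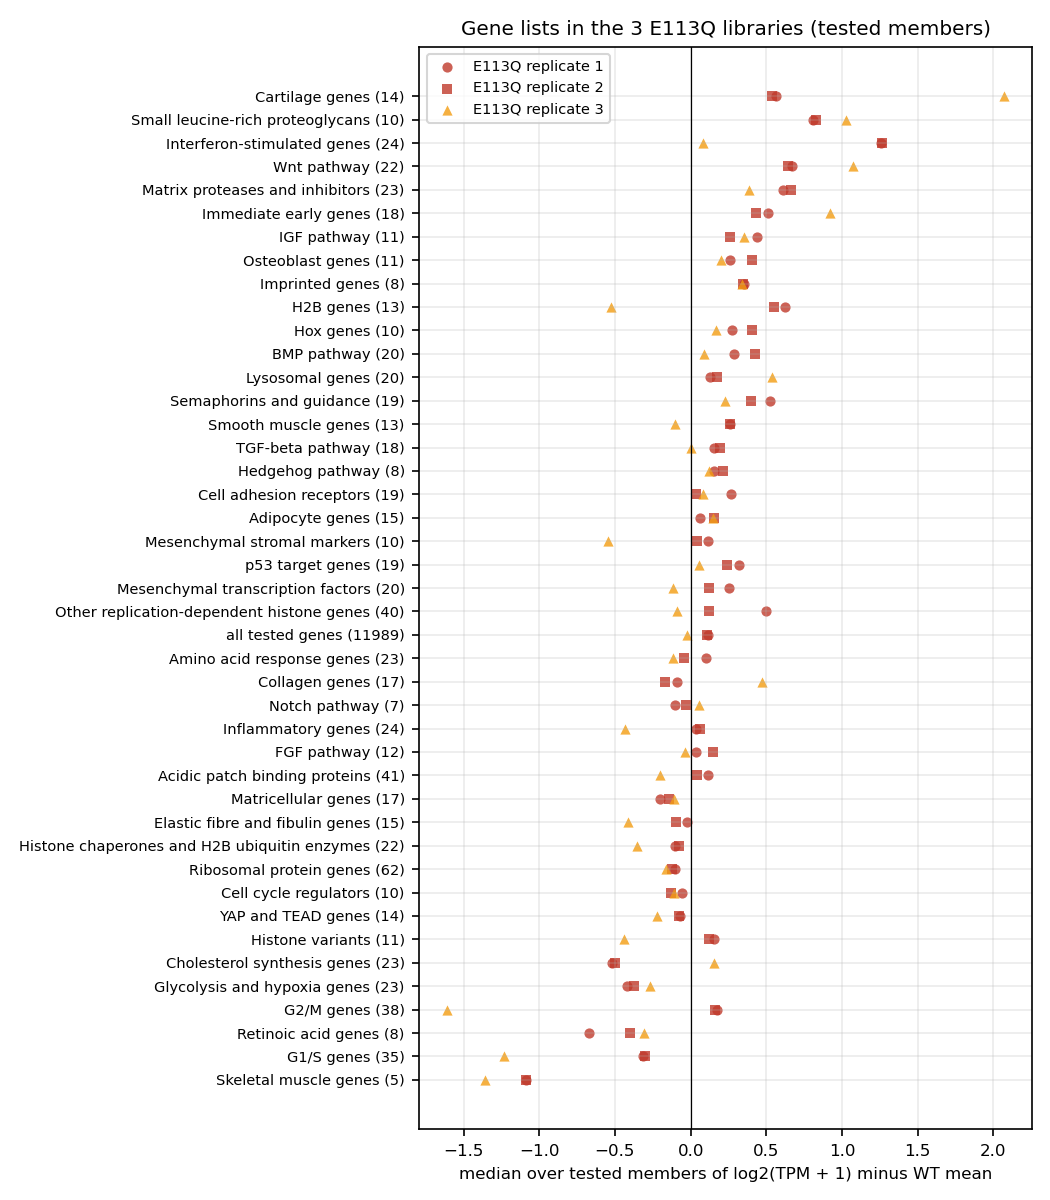
Median over the tested members of each gene list of log2(TPM + 1) minus the WT mean, for E113Q replicates 1 and 2 (red) and 3 (orange), with the number of tested members in brackets and all tested genes as one row. Replicates 1 and 2 lie close to each other in most rows, and replicate 3 is apart for interferon-stimulated, G2/M, G1/S and cartilage genes.

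E113K changes the same residue to lysine and served to ask where the 2 substitutions differ. Most changes against WT were called in both. Of the 2213 genes that rose in E113Q, 1619 were called in E113K in the same direction and 48 in the opposite one. Of the 1668 that fell, the counts were 1200 and 69. Both substitutions were set against the same WT libraries, which can itself make calls alike, so the direct test between them is the one given below. Of the tested genes 3410 differed (28.4%), 1659 higher (13.8%) and 1751 lower (14.6%) in E113Q. Perp was at 0.0174 ± 0.0301 TPM (SD, n = 3) in E113K against 28.1 ± 1.33 in E113Q, a difference of 4.84 ± 0.14, adjusted p = 1.47e-13. Ifih1 was at 0.0536 ± 0.0340 TPM in E113K, a difference of 3.03 ± 0.21, adjusted p = 1.37e-08. Both were on in each E113Q library and close to 0 in WT and E113K.

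Cyp26b1 was at 2.30 ± 0.285 TPM in E113K (difference 3.54 ± 0.31, adjusted p = 2.82e-07), Matn4 at 0.158 ± 0.188 TPM (3.07 ± 0.59, adjusted p = 9.24e-04) and G0s2 at 0.628 ± 0.521 TPM (3.83 ± 0.51, adjusted p = 3.42e-05). Smoc2, low in E113Q, was at 90.6 ± 5.67 TPM in E113K (-2.57 ± 0.37, adjusted p = 6.71e-05), and Notch3 was at 24.4 ± 1.22 TPM (-1.82 ± 0.21, adjusted p = 8.19e-06). Pparg was lower in E113Q than in E113K, where it was at 83.9 ± 6.40 TPM (-1.20 ± 0.12, adjusted p = 1.14e-06). Hist2h2be was at 35.2 ± 0.858 TPM in E113K and higher in E113Q (1.72 ± 0.19, adjusted p = 5.88e-06). Rspo2 did not differ past the threshold (-0.66 ± 0.46, adjusted p = 0.3), nor did Efemp1 (-0.62 ± 0.29, adjusted p = 0.12) or Nov (0.36 ± 0.28, adjusted p = 0.37), which does not show that they were alike.

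All 38 tested G2/M genes and 32 of the 35 G1/S genes were higher in E113Q than in E113K, and Mki67 was at 9.28 ± 0.785 TPM in E113K (1.64 ± 0.36, adjusted p = 0.00246). Cholesterol synthesis genes were lower in E113Q in 21 of 23, as were 10 of 14 YAP and TEAD genes and 12 of 23 matrix proteases and inhibitors. Of the 24 interferon-stimulated genes 2 were higher (Ifih1 and Mx1) and 1 lower (Irf9).

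Some genes set E113Q apart from all 6 other groups. In 65 genes (0.542%) E113Q was higher, and in 30 (0.25%) lower, at an adjusted p below 0.05 in each of the 6 contrasts, which share the E113Q libraries. With a minimum mean of 5 TPM over the E113Q and WT libraries, 22 were higher and 20 lower. With a minimum mean of 1 TPM over all 21 libraries, 46 were higher and 30 lower. A gene can pass these filters through the E113Q libraries alone, so the counts of higher and lower genes are not to be compared. Perp and Ifih1 were among the higher genes, with smallest differences of 4.32 and 2.78 (log2) from any other group. Both passed the filter only through E113Q, as they averaged 0.478 and 0.0476 TPM in WT. Of the higher genes that averaged 5 TPM or more over the 21 libraries, Rspo3 had the largest margin (2.10), at 34.5 ± 5.87 TPM (SD, n = 3) against 7.24 ± 0.767 in E113K and at most 0.617 on average in the other 5. That average includes the E113Q libraries, and Rspo3 reached 5 TPM only through them. Hebp2, a heme-binding protein, was at 45.7, 43.4 and 22.5 TPM, against a mean of 13.8 in E113K and 5.78 or less elsewhere. Btc (betacellulin), a ligand of the EGF receptor, was at 17.3, 17.6 and 23.4 TPM, against 9.04 or less. Il3ra, Hspa2, Pdzd2, Pdf, Pnpla6, Fam177a and Hmga2-ps1 were the others of the 10 named at that level, with smaller margins. Pdf lies on chromosome 8, in a run of 6 neighbouring tested genes that all rose against WT. The median difference of E113Q from each of the 6 other groups was 0.16 to 0.48 on chromosome 8 and 0.06 to 0.37 on chromosome 12. Margins of genes on these chromosomes were not corrected for it.

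**Figure D4:**
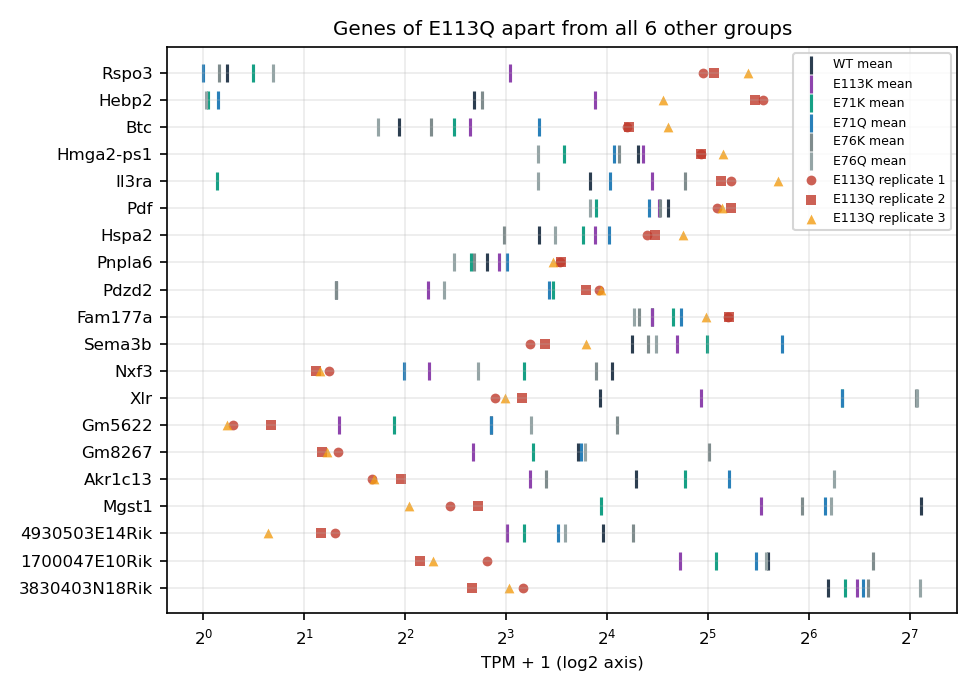
TPM + 1 on a log2 axis for the 10 genes with the largest margins above and the 10 with the largest below all 6 other groups among those averaging 5 TPM or more over the 21 libraries, with each E113Q library as a point and the mean of each other group as a vertical tick. The genes were selected as called above or below all 6 groups, so the E113Q points lie beyond all 6 ticks in each row largely by that choice. They lie to the right in the upper 10 rows and to the left in the lower 10.

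Of the lower genes at that level, Mgst1, a microsomal glutathione transferase, was at 4.44, 5.59 and 3.10 TPM in E113Q and at 134, 148 and 131 TPM in WT (log2 fold change -4.71 ± 0.15, adjusted p = 5.07e-14). The lowest mean elsewhere was 14.4 TPM in E71K. 3830403N18Rik, on the X chromosome, was at 7.99, 5.31 and 7.15 TPM against a lowest mean of 72.3 TPM in WT. Xlr, also X-linked, was at 6.41, 7.92 and 6.96 TPM against 14.2 TPM in WT and 134 in E76Q. On chromosome 14 the genes 1700047E10Rik, 4930503E14Rik, Gm8267 and Gm5622 were all in this group, at -3.19, -2.92, -2.47 and -2.44 against WT. The aldo-keto reductase Akr1c13, the semaphorin Sema3b and the export factor Nxf3 were the others named.

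Changed genes were not spread evenly over the chromosomes. On chromosome 8 the median log2 fold change of 664 tested genes was 0.37, and 292 of them rose (44.0%) while 46 fell. On chromosome 12 the median of 400 genes was 0.37, with 165 up (41.2%) and 26 down. On chromosome 17 the median of 606 genes was -0.30, with 33 up and 213 down (35.1%). Medians of the other chromosomes ran from -0.06 on chromosome 2 to 0.16 on chromosome 14.

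The shifts were seen in each E113Q library. They were 0.43, 0.40 and 0.30 for chromosome 8, 0.42, 0.42 and 0.25 for chromosome 12 and -0.24, -0.27 and -0.43 for chromosome 17, where the WT libraries were within 0.03 of 0. When the tested genes of a chromosome were divided by position into 4 parts of equal gene number, medians were 0.33 to 0.42 along chromosome 8, -0.26 to -0.33 along chromosome 17 and 0.47, 0.38, 0.41 and 0.18 along chromosome 12. Gene copy number was not measured, and its part in these shifts was not tested. The other substitutions, set against the same WT libraries, had medians on chromosome 17 of -0.29 in E71K, -0.30 in E71Q, -0.35 in E76Q, -0.02 in E76K and -0.06 in E113K. On chromosome 8 they had -0.01, 0.01, -0.09, 0.24 and 0.22 in the same order. On chromosome 12 they had 0.21, 0.10, -0.0024, 0.18 and 0.33. Between E113Q and E113K the medians differed by 0.16, 0.06 and -0.22 on chromosomes 8, 12 and 17. Genes named above that lie on these chromosomes were not corrected for it, among them Cdh11, Junb, Klf2, Zfp423 and Pdf on chromosome 8, Fbln5 and Fos on chromosome 12, and Smoc2, Notch3, Vegfa, Uhrf1 and Chaf1a on chromosome 17.

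**Figure D5:**
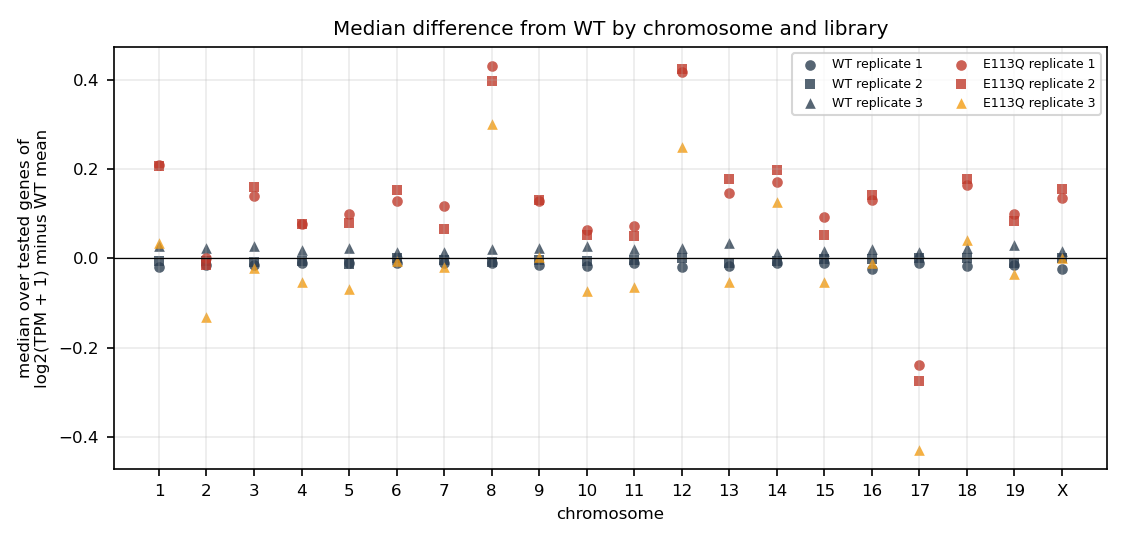
Median over tested genes of log2(TPM + 1) minus the WT mean for each chromosome, with the 3 E113Q libraries in red (replicate 3 in orange) and the 3 WT libraries dark. The E113Q points of chromosomes 8 and 12 lie above those of the other chromosomes and the points of chromosome 17 below.

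Within chromosomes, 19 runs of at least 6 neighbouring tested genes all rose (15 runs) or all fell (4 runs), with 131 genes in all. Of these 7 runs were on chromosome 8, 3 on chromosome 12 and 1 on chromosome 17. The longest was a fall of 11 genes on chromosome 3 that held the Sprr2 genes, Lelp1 and Sprr1a. A run of 8 on chromosome 11 rose and held Sox9 with Abca9, Abca5, Map2k6, Kcnj2, 2610035D17Rik, Slc39a11 and Cog1. A run of 7 on chromosome 19 rose and held Rnls, Stambpl1, Acta2, Fas, Lipa, Ifit2 and Ifit3, and 7 protocadherin genes of the Pcdhb cluster rose together. Without replicate 3 there were 14 runs, 13 up and 1 down, among them a run of 6 on chromosome 3 with the guanylate-binding genes Gbp5, Gbp7, Gbp3, Gbp2b and Gbp2.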

How the data were processed

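RNA abundance was measured in 3 libraries of cells with H2B E113Q and 3 with wild-type H2B. The authors deposited TPM, which has a fixed sum in each library. The submitters' processing notes name Salmon, featureCounts 1.4.4, DESeq and mm10, with no role for each. Counts were not used here, so depth is unknown and no counting interval can be given.

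The test covered 11989 of 24091 genes, those averaging 1 TPM or more across these 6 libraries, as log2(TPM + 1). Limma 3.58.1 in R 4.3.3 fitted the 7 groups to all 21 libraries, moderating each gene's variance along a trend in abundance (14 residual degrees of freedom and 3.26 from the prior). P-values were adjusted over the tested genes by the Benjamini-Hochberg method, and an adjusted p below 0.05 is called risen or fallen. The procedure was tested on simulated data. Positions are those of GRCm38, found by Entrez Gene identifier for 11975 tested genes.

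The members and the gene lists were chosen with earlier results of these data known. Genes were named by rule: the 14 largest rises and the 14 largest falls among called genes that averaged 5 TPM or more, with no overlap between groups and the same call without E113Q replicate 3; up to 4 called members of each list by size of change; 8 lineage and cycle genes followed in any case; each tested H2B gene; the 10 genes farthest above and the 10 farthest below all 6 other groups, of those averaging 5 TPM or more over the 21 libraries; and genes of the library farthest from its mates. The last part named mostly short RNA loci, so its 12 protein-coding genes are given too, a choice made after seeing the data. Other genes are named within their list's count, or as members of a run, after their values were seen. Values of a few list members are not reported here.

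The alternatives were pseudocounts of 0.1 and 5, other filters, median-ratio rescaling, quantile normalization, Mir6236 left out, other moderation, only the samples compared, a replicate block, a 2-fold minimum and each library left out. Centring by chromosome was added after seeing the data. No pairing of the samples by replicate number was seen, and the main fit assumed none. Software also included Python 3.11.15, pandas 2.3.3, numpy 2.4.6 and matplotlib 3.10.9.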

Additional observations from a re-analysis of the deposited data

Results flagged for a closer look

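In 5 of the named genes E113Q and E113K were called in opposite directions against WT, and the difference between them was itself called by limma with Benjamini-Hochberg adjustment. These were 5 of the 201 named genes called against WT, beside 117 of the 3881 called over all tested genes, a similar share. Both contrasts use the same WT libraries. Perp was 4.32 in E113Q and -0.52 (adjusted p = 0.0053) in E113K, a difference of 4.84 ± 0.14, adjusted p = 1.47e-13. Lmcd1, a LIM domain regulator, was 1.38 and -1.37 (adjusted p = 0.00286), a difference of 2.74 ± 0.34, adjusted p = 1.57e-05. Cyp26b1 was 2.57 and -0.97 (adjusted p = 0.0143), a difference of 3.54 ± 0.31, adjusted p = 2.82e-07. The lysosomal protease Ctsb was -0.45 and 0.50 (adjusted p = 0.0165), a difference of -0.96 ± 0.16, adjusted p = 4.01e-04. Xlr was -0.91 and 1.01 (adjusted p = 1.75e-05), a difference of -1.92 ± 0.14, adjusted p = 3.44e-08. The fall of Ctsb in E113Q missed the threshold without replicate 3 (adjusted p = 0.0726).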

How the results depend on the processing

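With median-ratio rescaling 2719 genes fell against WT, 5306 differed from E113K and 207 stood apart from all 6 other groups (149 higher, 58 lower). Quantile normalization gave 2764, 5338 and 217 (129 higher, 88 lower). Leaving out Mir6236 gave 3378 rises against WT and 171 genes apart from all 6 (110 higher, 61 lower). With no filter 168 genes stood apart from all 6 (139 higher), with a minimum of 5 TPM 42 (22 higher), with only the samples compared 49 (31 higher, 18 lower), and with a pseudocount of 0.1 there were 40 higher. A 2-fold minimum left 1304 genes against WT (735 up, 569 down), 994 against E113K and 29 apart from all 6 (20 higher, 9 lower). Centring by chromosome, chosen after seeing the data, gave 2617 falls against WT and 59 genes lower than all 6. The cause of these moves was not tested.

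Leaving out 1 library gave 2901 to 3376 called genes against WT (1582 to 2105 up, 1225 to 1648 down), 2376 to 3334 against E113K and 85 to 121 apart from all 6 (59 to 94 higher, 26 to 28 lower). Without E113Q replicate 3 the calls in gene lists were 270 and the runs of neighbours 14. Deviations of same-numbered E113Q and WT libraries from their group means correlated at -0.006, 0.033 and -0.075. These values gave no sign of pairing by replicate number but cannot exclude it, since E113Q replicate 3 lay apart from its mates. A replicate block gave 4102 called genes against WT (2391 up, 1711 down), 3597 against E113K and 67 higher and 33 lower than all 6.

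Of 4045 values of the 215 named genes under these alternatives, 3894 kept direction and call, 137 lost the call, 1 gained it and 13 changed sign, none of them called. With 1 library left out the last ranged from -0.66 to 0.30 (Hist1h2be), -0.32 to 0.42 (Hist1h2bk), -0.091 to 0.49 (Hist1h2bm), -0.52 to 0.062 (Hist1h2bb), -0.94 to 0.48 (Hist1h2bl) and -0.70 to 0.21 (Mki67). With 3 libraries a group and no read totals, counting error cannot be separated from other spread.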
